A study of Mus musculus with 2 samples.

Results

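The 10 genes described here carry the presentation of peptides to T cells: 5 of the class II route (Cd74, H2-Aa, H2-Ab1, H2-Eb1 and H2-DMa) and 5 of the class I route (H2-K1, H2-D1, B2m, Tap1 and Tap2). They were taken by name. A probe set of the Affymetrix Mu11k pair of mouse chips, called subA and subB, was a member where the platform annotation gives it the symbol of one of these genes, which held for 19 of the 13179 probe sets, 9 on subA and 10 on subB. No probe set with several symbols named a member. One further probe set, MURINE_B2_at, stands on both chips and is described separately, because no annotation gives it a gene. A probe set is a group of probe pairs, each a perfect match to the transcript beside a mismatch, and its level is the average difference between them.

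RNA came from purified CD4+ T cells of spleen and lymph node of female B10.PL mice that are transgenic for a T-cell receptor specific for MBP Ac1-11, a peptide of myelin basic protein. Both samples, 1 per chip, are labelled Ac1-11 at 48 h (the description writes the stimulus as MBP Ac 11-11), and the series sets expression after 4Y, which the labels leave undescribed, against that after Ac1-11. The labels add the abbreviation TCL, which they do not expand, and the series title names a CD4 sort. The ages of the mice, the promoter of the transgene and the number of animals behind an array are not given in the sources used here.

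Each chip had 1 array with deposited levels and 1 baseline array, whose level was computed as deposited level minus deposited change. With no replicate array there is no test, and precision is limited by how few arrays were read. Which stimulus each array belongs to is unsettled: levels filed under the Ac1-11 label equal, value by value, those of an experiment that the comparison table names 4Y, for 6584 probe sets on subA and 6595 on subB. The series' design gives its ratios as 4Y over Ac1-11. Values are therefore given per chip as deposited over baseline, and the opposite reading turns every direction below. Folds, difference calls and scored probe pairs are those of the authors' deposited table, in which a decrease is written as a negative fold. A probe set is called detected here if it was present on the deposited array or not marked absent at baseline, and counted as changed if detected, at least 2-fold different and called increased or decreased. This is a rule of size. Where a gene had 2 detected probe sets, their log2 folds had an SD per probe set of 0.46 over 251 genes of subA and of 0.62 over 51 genes of subB.

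Class I molecules consist of a polymorphic heavy chain, such as the products of H2-K1 and H2-D1, and beta-2 microglobulin, the product of B2m. They are made by nearly all nucleated cells and show peptides that the proteasome has cut and that the transporter TAP, a pair of the Tap1 and Tap2 products, has carried into the endoplasmic reticulum. Class II molecules pair an alpha and a beta chain, encoded by H2-Aa and H2-Ab1 for I-A and by H2-Ea and H2-Eb1 for I-E. The invariant chain, encoded by Cd74, guides them to endosomes and blocks their groove until H2-DM, of which H2-DMa encodes the alpha chain, exchanges its remnant for peptide. In mice class II is the property of B cells, dendritic cells, macrophages and thymic epithelium, and mouse T cells are generally regarded as making little or none, unlike activated human T cells.

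Cd74 was the only member that counted as changed. On subA all 9 member probe sets were detected, and on subB 6 of 10 were, which admits a probe set that is present on either array alone. On subA 0 of 9 counted as changed, where 4.46% of 3343 detected probe sets did so. On subB 1 of 6 counted, where the share over 1813 detected probe sets was 6.23%, so that 1 probe set carries the whole count. A call of increase or decrease by the comparison software was given to 1 member on each chip, H2-K1 by 1 of its probe sets on subA and Cd74 on subB, against 7.51% and 8.94% of detected probe sets.

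The invariant chain gene Cd74, measured on subB alone by X00496_s_at, had a level of 9129 average difference units on the deposited array and an implied 3146 on the baseline array. The deposited array was thus the higher. It was called present, and the baseline was not marked absent. In the authors' deposited table the fold was 2.9, with 18 of 20 probe pairs scored as increased, 0 as decreased and an increase call. On the log2 scale this is 1.54, above the 0.62 of spread between probe sets of 1 gene, although that spread says nothing of how 2 separate cultures would differ. Of the 1813 detected probe sets on this chip, 45 (2.48%) had a fold at least as high, and 7 (0.386%) had at least as many pairs scored as increased. Probe sets of similar level had a running median log2 fold of 0, so the value for Cd74 was the same with that trend removed.

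The alpha chain of I-A, encoded by H2-Aa, was the class II member detected on both chips, by 3 probe sets on subA and 2 on subB. On subA the levels were 2322 against 2300 at baseline for AF027865_2_s_at, 2433 against 2401 for k01923_f_at and 798 against 744 for K01925_f_at. The array pairs thus lay close together, with folds of 1.0, 1.0 and 1.1 in the authors' deposited table and 1 to 3 of 20 pairs scored as increased beside 1 or 2 as decreased. On subB, the probe set built on accession V00832 had a level of 4318 against 2868, a deposited fold of 1.7 and 6 pairs increased with 2 decreased. The other, built on K01923 like one of the subA probe sets, had 2942 against 2684, a fold of 1.1 and 4 pairs increased with 2 decreased. None of the 5 had a difference call. All but AF027865_2_s_at have the ending _f, which marks probe sets that recognise several related sequences. Signal from sequences related to H2-Aa therefore cannot be set apart in them. The SD of the 2 log2 folds on subB was 0.44, beside 0.62 over genes of that chip with 2 detected probe sets. The fold of 1.7 is also larger than the ratio of the levels, 1.51. Both probe sets on subB were thus higher on the deposited array, and the size of the fold depended on which was taken.

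H2-Aa illustrates the promoter layout of class II genes, in which an X box with its X2 part and a Y box lie at a fixed distance just before the start. The 250 bases before its start are shown with 2 short motifs in capitals, as RefSeq gives them for GRCm38.p6. That is the C57BL/6J sequence, whose MHC haplotype is not that of B10.PL. The window is chr17:34287824-34288073, minus strand.

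H2-Aa: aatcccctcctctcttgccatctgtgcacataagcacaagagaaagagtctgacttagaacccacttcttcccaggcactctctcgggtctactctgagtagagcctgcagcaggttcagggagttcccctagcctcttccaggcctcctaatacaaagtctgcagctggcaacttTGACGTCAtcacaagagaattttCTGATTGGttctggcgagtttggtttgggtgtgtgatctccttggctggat

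The capitals mark TGACG or its complement, the core of the cyclic AMP response element as found in X2, at 74 and again, on the other strand, at 71 bases before the start, and CTGATTGG, a Y box that reads CCAATCAG on the other strand, at 51. Both were searched on both strands, as was CCAAT, whose complement lies inside the Y box at 48, and the class I motif described with H2-K1. Of 27025 promoters in the table, cut to the same length, 17.9% hold TGACG, 34.5% CCAAT and 4.07% CCAATCAG. The H2-Eb1 window holds CTGATTGG at 62 bases before its start, and that of H2-DMa holds none of the 4 motifs. A match describes the letters of the window and is not a site shown to be bound.

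The remaining class II members were not detected. H2-Ab1, the beta chain of I-A, had 588 units against an implied 976 on subB, with 6 pairs scored positive and 6 negative on the deposited array and an approximate deposited fold of -1.9. H2-Eb1, the beta chain of I-E, had levels of 4641 against 3916 by x00958_s_at and 2368 against 2417 by the probe set built on X00702. Both were called absent although these numbers are not small, with 7 pairs positive beside 5 and 3 negative, and their folds were 1.2 and -1.0. H2-DMa lay below 0 on both arrays, at -1843 and -1127. No difference between arrays can be read for these 3 genes. Taken over the 2 detected genes, class II had a median log2 fold of 1.15 on subB, which was 0.77 for H2-Aa without Cd74, beside 0 over all detected probe sets of the chip. With the single gene H2-Aa it was 0 on subA.

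**Figure D1:**
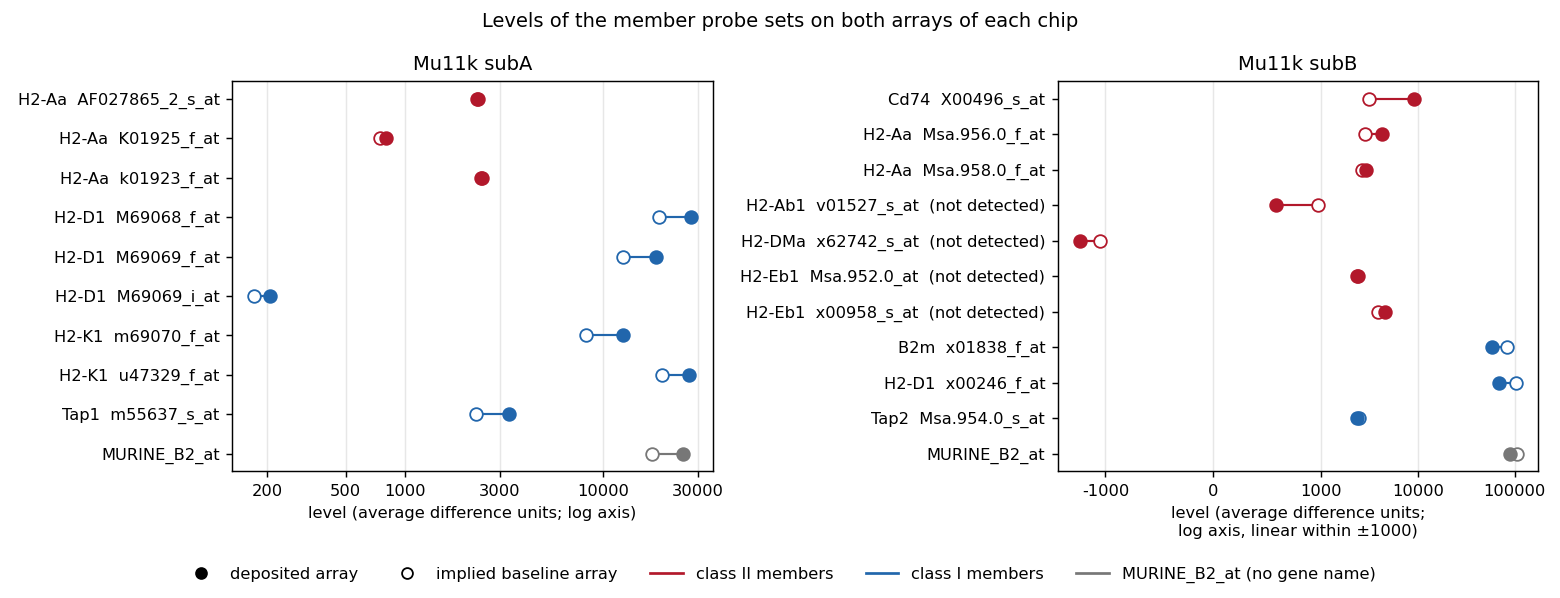
Levels of the 19 member probe sets and of MURINE_B2_at on subA and subB in average difference units, filled points for the deposited array and open points for the implied baseline array, each pair joined by a line. Cd74 on subB moved from 3146 to 9129, the 3 H2-Aa pairs on subA nearly coincide, and H2-D1 lies to the right of its baseline on subA and to the left on subB.

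Markers of other cells that a CD4 sort could hold were read beside the class II genes. In bulk RNA fewer cells of a type and less RNA per cell cannot be told apart. Of 16 B-cell markers, 4 were on subB, where Cd74 was measured, by 5 probe sets. Cd79a, the B-cell receptor signalling chain, lay at -475 on the deposited and -442 on the baseline array, and Pax5, the B-cell lineage factor, at -411 and -721, all below 0. Only 1 of the 5 was called present, an Ighm probe set (X03690_s_at) with 2820 against 2118 and a fold of 1.3, and the list's summed level was 1156 on the deposited and -350 on the baseline array. On subA, 13 markers had 20 probe sets summing to 11044 and 12283, 3 of them called present. In the authors' deposited table for subA, 2 B-cell genes counted as lower, both by approximate folds and with the deposited level below 0: Fcer2a, the low-affinity IgE receptor CD23 (-8.3), and Pou2af1, a B-cell coactivator (-4.2). They were 2 of 9 detected B-cell probe sets, where 4.46% of all detected probe sets counted as changed. Ms4a1 had a decrease call by M62541_s_at, with 9 of 20 pairs decreased, but was not detected at -643 against 254. Of the 8 B-cell genes detected on subA, 7 had a fold below -1 and 1 above, where 42.5% of detected probe sets lay below -1 and 45.0% above 1. Of these 8, Ly86, Fcer2a, Pou2af1, Jchain (168 against 261) and Cd79b (471 against 772) were called absent on the deposited array. They passed detection through the baseline alone, which favours a fold below -1, so this lean is no result about the B-cell genes. The same holds for the 2 that counted as lower. Blk (-1.1, by its brighter probe set) and Ighm (-1.2) were called present on the deposited array. The gene above 1 was Cd37, a tetraspanin of B cells that T cells also express. It had the highest level of the list on the deposited array, 5256 against 2451, with a fold of 2.1, 10 of 20 pairs increased, 0 decreased and a marginal increase call. Its fold has the sign of that of Cd74, on the other chip.

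Of the macrophage, monocyte and dendritic cell markers, 6 of 11 probe sets were called present on the deposited array on subA and 1 of 5 on subB. On subB, Csf1r, the receptor for macrophage colony-stimulating factor, had -1782 and -1350 and Adgre1, the F4/80 antigen, -161 and -147. Cd14, a lipopolysaccharide co-receptor, was present at 1720 against 2809, a deposited fold of -1.6 without a difference call. The 5 probe sets of this list on subB summed to 7 units on the deposited and 1643 on the baseline array. The 11 on subA summed to 7576 and 6306, and Lyz2, the macrophage lysozyme, made up most of the former with 5294 against 2286. Its deposited fold of 6.2 is larger than the ratio of these 2 levels, although not marked approximate. It came with 7 of 20 pairs scored as increased and no difference call. Most of the list lay the other way, with 5 of the 7 genes detected on subA at a fold below -1, beside 42.5% of detected probe sets. The median log2 fold of the 7 was -0.58. Besides Lyz2, Fcgr3 lay above 1, at 190 against -3 with an approximate fold of 3.1. Fcer1g, a signalling chain of Fc receptors, had 1224 against 2100 (-1.7), and Cd86, a costimulatory ligand, 388 against 766 (-2.0). Cd83, a marker of mature dendritic cells that activated lymphocytes also express, had 123 against 751 (-6.1). Cd83 was called absent on the deposited array and passed detection through the baseline alone. No marker of this list counted as changed on either chip. Markers of the labelled cells were present. Cd4 had 19607 against 28344 and Cd3d, a chain of the receptor's CD3 complex, 12774 against 23316 on subB, both present, whereas Cd8a was below 0 on both arrays at -1568 and -1337. Cd4 and Cd3d had folds of -1.4 and -1.8, each with a decrease call, opposite in sign to that of Cd74 on the same chip. Cd3g, the 1 marker of this list that counted as changed, had one of -2.1. On subB, 5 of the 6 detected genes of this list lay below -1, beside 47.8% of detected probe sets, and Cd2 had 1.1. The 5% of detected probe sets with the highest level there had a median log2 fold of -0.26. On subA, 2 genes lay above 1, Cd3e (1.4) and Cd5 (1.1), and 2 below -1, of which Cd28 (-1.6) had a decrease call. The part of other cells in the Cd74 value was not tested.

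No class I member counted as changed on either chip, and their folds had one sign on subA and the other on subB. All 6 class I probe sets on subA had a deposited fold above 1, between 1.2 and 1.5, beside 45.0% of detected probe sets, while 42.5% lay below -1. All 3 on subB had a fold below -1, between -1.1 and -1.5, beside 47.8%, with 43.6% above 1. Over all members, 7 of 9 probe sets lay above 1 on subA, and on subB 3 lay above and 3 below. Folds were not spread evenly over levels on either chip. The 5% of detected probe sets with the highest mean level had a median log2 fold of 0.38 on subA and -0.26 on subB, the signs that the class I genes have. Whether the class I folds are part of that trend was not tested, and the value with the trend removed is given for each.

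The 2 classical heavy chain genes are shown by the 250 bases before their RefSeq start in GRCm38.p6, since class I promoters are known to share an upstream enhancer. Whether these sequences bear on the folds was not tested. B2m, the light chain gene, is set beside them.

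H2-K1: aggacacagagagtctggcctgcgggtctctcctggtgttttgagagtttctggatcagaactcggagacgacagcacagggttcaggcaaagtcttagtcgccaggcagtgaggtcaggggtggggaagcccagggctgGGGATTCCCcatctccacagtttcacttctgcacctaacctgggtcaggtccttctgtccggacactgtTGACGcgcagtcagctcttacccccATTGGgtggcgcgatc
H2-D1: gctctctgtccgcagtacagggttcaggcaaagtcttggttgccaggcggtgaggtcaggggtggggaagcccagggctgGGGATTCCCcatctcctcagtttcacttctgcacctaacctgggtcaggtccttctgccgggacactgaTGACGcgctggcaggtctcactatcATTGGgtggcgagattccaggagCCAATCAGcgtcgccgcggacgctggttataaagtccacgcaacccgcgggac
B2m: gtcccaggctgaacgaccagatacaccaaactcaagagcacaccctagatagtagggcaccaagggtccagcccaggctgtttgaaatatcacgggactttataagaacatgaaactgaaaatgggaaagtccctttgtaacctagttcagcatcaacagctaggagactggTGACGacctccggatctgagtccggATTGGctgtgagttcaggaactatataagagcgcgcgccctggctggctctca

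These windows are chr17:34000348-34000597 on the minus strand, chr17:35262844-35263093 on the plus strand and chr2:122147437-122147686 on the plus strand. Capitals mark GGGATTCCC, a kappaB-like motif, and the 3 motifs searched in H2-Aa, on either strand. GGGATTCCC stands in the H2-K1 and H2-D1 windows, at 110 and 170 bases before the start, and in 0.311% of all 27025 windows. It is not in the other 5 member windows. TGACG stands at 41, 101 and 78 bases before the starts of H2-K1, H2-D1 and B2m, and the complement of CCAAT at 16, 76 and 53. Each of these 3 motifs thus lies 60 bases nearer to the annotated start in H2-K1 than in H2-D1, which also holds CCAATCAG at 53. Aligned end to end, the 2 heavy chain windows had 170 of 190 aligned bases identical, or 89.5%. In all, 5 of the 7 members in the table held TGACG and 6 held CCAAT. Cd74, H2-Ab1 and Tap2 were not used here.

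The heavy chain gene H2-K1 had levels of 27038 against 19745 by u47329_f_at and 12569 against 8178 by m69070_f_at on subA. The deposited array was higher by both, with folds of 1.4 and 1.5 in the authors' deposited table. Only m69070_f_at had an increase call, with 8 of 20 pairs scored as increased and 0 as decreased, whereas u47329_f_at had 2 and 0. With the trend over level removed, the log2 folds of 0.49 and 0.58 became 0 and 0.32.

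H2-D1, the second classical heavy chain gene of this annotation, had 3 probe sets on subA. M69068_f_at had 27745 against 19080, M69069_f_at 18474 against 12653 and M69069_i_at, which uses 16 pairs, 207 against 172. All 3 were higher on the deposited array, with folds of 1.5, 1.5 and 1.2, and none had a difference call. Scored as increased were 2, 5 and 3 pairs, as decreased 0, 1 and 1. The trend removed, log2 folds of 0.10, 0.21 and 0.26 remained. On subB, x00246_f_at gave the opposite order, 68331 against 104142, with a deposited fold of -1.5, 0 pairs increased and 5 decreased, and no difference call. Its log2 fold of -0.58 became -0.21 with the trend removed. The ending _f marks probe sets that recognise several related sequences, so heavy chains of the family share signal and H2-K1 and H2-D1 cannot be separated with certainty. The probe sets of B2m and of Psmb9 described below have this ending too. The 4 subA probe sets annotated with several other class I genes had folds from 1.1 to 1.5, none with a difference call.

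B2m, measured on subB, had 58994 against 84281, a fold of -1.4 in the authors' deposited table, with 6 of 20 pairs scored as decreased and 0 as increased and no difference call. The log2 fold was -0.49, and -0.11 with the trend removed. The deposited array was therefore the lower for the light chain and for the H2-D1 heavy chain, and the higher for Cd74, on the same chip.

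The transporter genes were read 1 per chip. Tap1, on subA, had 3351 against 2272, a fold of 1.5, 3 of 20 pairs increased and 0 decreased. At its level the running median log2 fold was 0, so its 0.58 was the same with the trend removed. That was the largest trend-free value of the class I members on that chip, without a difference call, and it exceeded the SD of 0.46 between probe sets of 1 gene by little. Tap2, on subB, had 2337 against 2472, a fold of -1.1, with 1 pair increased and 3 decreased. The 2 subunits were on different chips, so their folds cannot be set against each other. Over genes, class I had a median log2 fold of 0.58 on subA and -0.49 on subB, and 0.10 and -0.14 with the trend removed. Over the 116 probe pairs of the 6 subA probe sets, 23 were scored as increased (19.8%) and 2 as decreased. Over the 60 pairs of the 3 on subB, 1 was scored as increased and 14 (23.3%) as decreased.

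**Figure D2:**
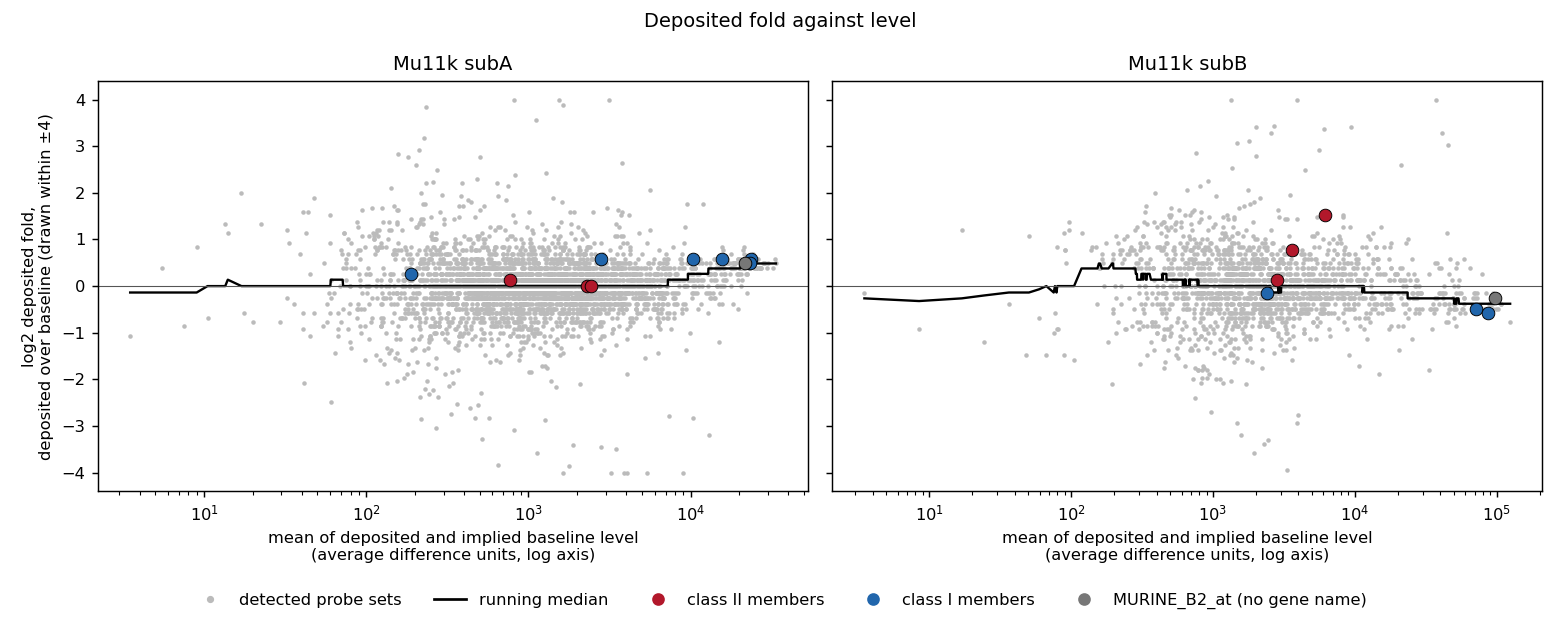
Log2 deposited fold against the mean of deposited and implied baseline level for all detected probe sets of each chip. The line is the running median over 300 probe sets, fewer at the ends, and the detected members and MURINE_B2_at are large points. The bright class I points follow the line up on subA and down on subB, whereas Cd74 stands at 1.54 where the line is at 0.

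**Figure D3:**
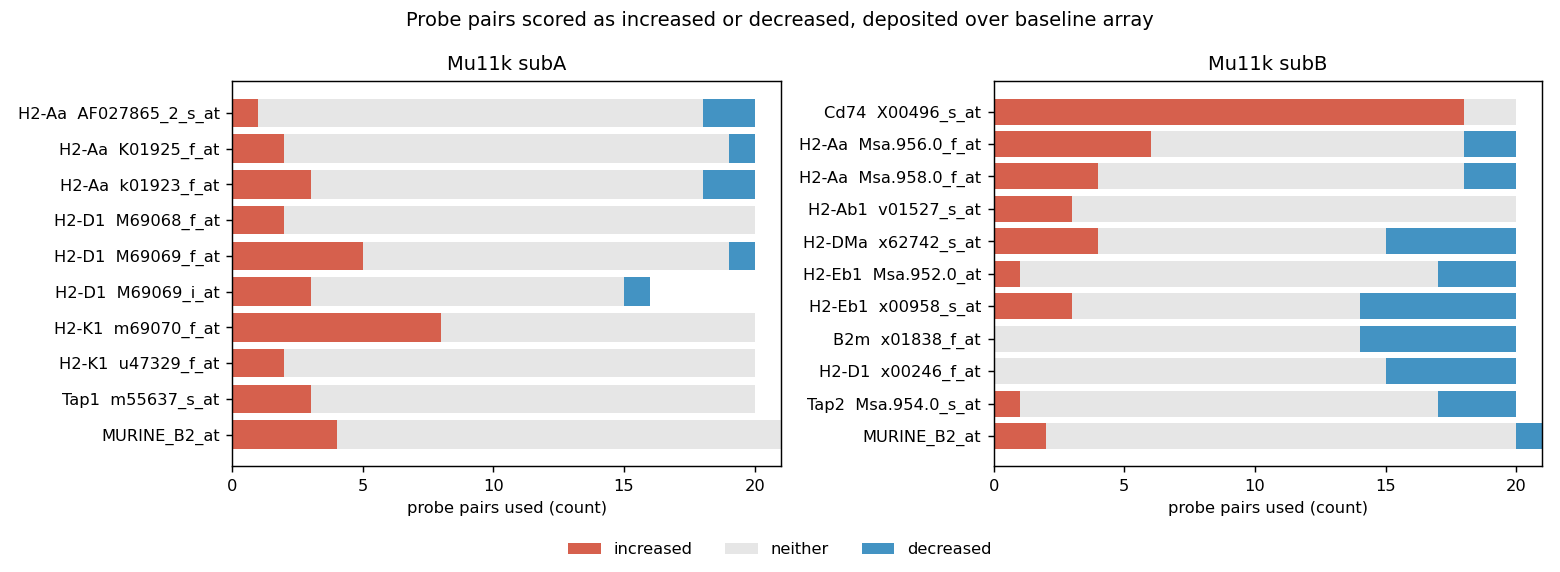
Number of probe pairs scored as increased, decreased or neither between the 2 arrays, for each member probe set and MURINE_B2_at. Cd74 had 18 of 20 pairs increased, m69070_f_at for H2-K1 had 8, and no other member exceeded 6 in either direction.

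The other genes of the pathway were read from a list of 53, in which 23 genes had a probe set of single symbol on subA and 17 on subB. Of the 16 detected on subA, 1 counted as higher and 0 as lower, and of the 9 detected on subB, 0 counted as higher and 1 as lower. Of all detected probe sets, 4.46% counted as changed on subA and 6.23% on subB, so each count rests on 1 gene. Median log2 folds were 0.20 and -0.38, beside 0 over all detected probe sets of either chip. The 5% of detected probe sets with the highest mean level had 0.38 and -0.26, of the same signs. Whether the list follows that trend was not tested.

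Among class II genes of that list on subA, Ctsh, an endosomal cathepsin, counted as higher, with 2173 against 401, a fold of 5.4 in the authors' deposited table, 13 of 20 pairs increased and an increase call. Its baseline was marked absent, so the size of the fold is uncertain. Ctss, the cathepsin that trims the invariant chain in antigen-presenting cells, had 2483 against 1842 and Ctsb, another cathepsin, 11814 against 8935, both with a fold of 1.3 and no difference call. H2-Oa, a chain of the H2-DM inhibitor H2-O, had 1114 against 1104. H2-Ea, the alpha chain of I-E, had 478 against 500 and 402 against 325 by its 2 probe sets, with folds of -1.0 and 1.2. Ciita, the transactivator on which class II transcription depends, was called absent on both arrays at 176 and 81. Of the 5 class II genes of the list detected on subA, Ctsh was thus the 1 with a fold above 1.3.

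On subB, Ctsl, a cathepsin of thymic epithelium and macrophages, counted as lower by an approximate fold of -3.2, with 9 of 20 pairs decreased by x06086_f_at. Its level was -145, below 0, against 755. Ctsd, an aspartic protease, had 27469 against 30575 and Lgmn, the endosomal asparagine endopeptidase, 1462 against 1952, with folds of -1.1 and -1.3. H2-Ea had 921 against 881, and H2-DMb1, the partner chain of H2-DMa, was not detected at 854 and 588. None of these 4 had a difference call.

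The class I part of the list gave 2 increase calls among its 10 detected probe sets on subA, both in peptide supply and loading. A call of increase or decrease was given to 7.51% of all detected probe sets of that chip. Tapbp, which encodes tapasin, the bridge between TAP and the empty heavy chain, had 21683 against 13898, and Psmb9, an interferon-inducible proteasome subunit, had 11091 against 6522. Both had a fold of 1.6 in the authors' deposited table with 7 of 20 pairs increased and 0 decreased, and neither reached 2-fold. Psmb9 and Tap1 are neighbours in RefSeq and are known to be transcribed from a shared promoter region in opposite directions. Their folds on this chip were 1.6 and 1.5, that of Tap1 without a difference call. Whether the shared region bears on these folds was not tested. Psmb8, a second immunoproteasome subunit, had 14455 against 12229 (1.2), Pdia3, a disulfide isomerase of the loading complex, 7352 against 8350 (-1.1), and Psme1, a proteasome activator, 6889 against 8575 (-1.2). Canx, the chaperone calnexin, had folds of 1.4 and -1.1 by its 2 probe sets. On subB, Psmb9 had 9235 against 14256 (-1.6), Psmb8 13208 against 17710 (-1.3), Canx 2080 against 2540 (-1.3) and Calr, calreticulin, 20231 against 15583 (1.3), without difference calls. Psmb8 and Psmb9 therefore had folds above 1 on subA and below -1 on subB, as H2-D1 had. Psmb10, a further immunoproteasome subunit, read on subA alone, had 2313 against 2448 (-1.1). The 5% of detected probe sets with the highest level had a median log2 fold of 0.38 on subA and -0.26 on subB. Whether the folds of Psmb8 and Psmb9 are part of that trend was not tested.

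No nonclassical heavy chain counted as changed. H2-M3, which presents formylated peptides, had 2330 against 2071 (1.1) and H2-Q10, a secreted heavy chain of liver, 3276 against 3550 (-1.1) on subA, and H2-M2 1529 against 1238 (1.4) on subB. No difference call was given to these 3, and the remaining genes of that group with a probe set of single symbol were not detected. H2-T23, H2-Q7, H2-T22 and H2-T10 are named only by the 4 subA probe sets with several class I symbols. Those were called present, for example m11284_s_at, which names H2-T23, at 14346 against 11580 (1.2).

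**Figure D4:**
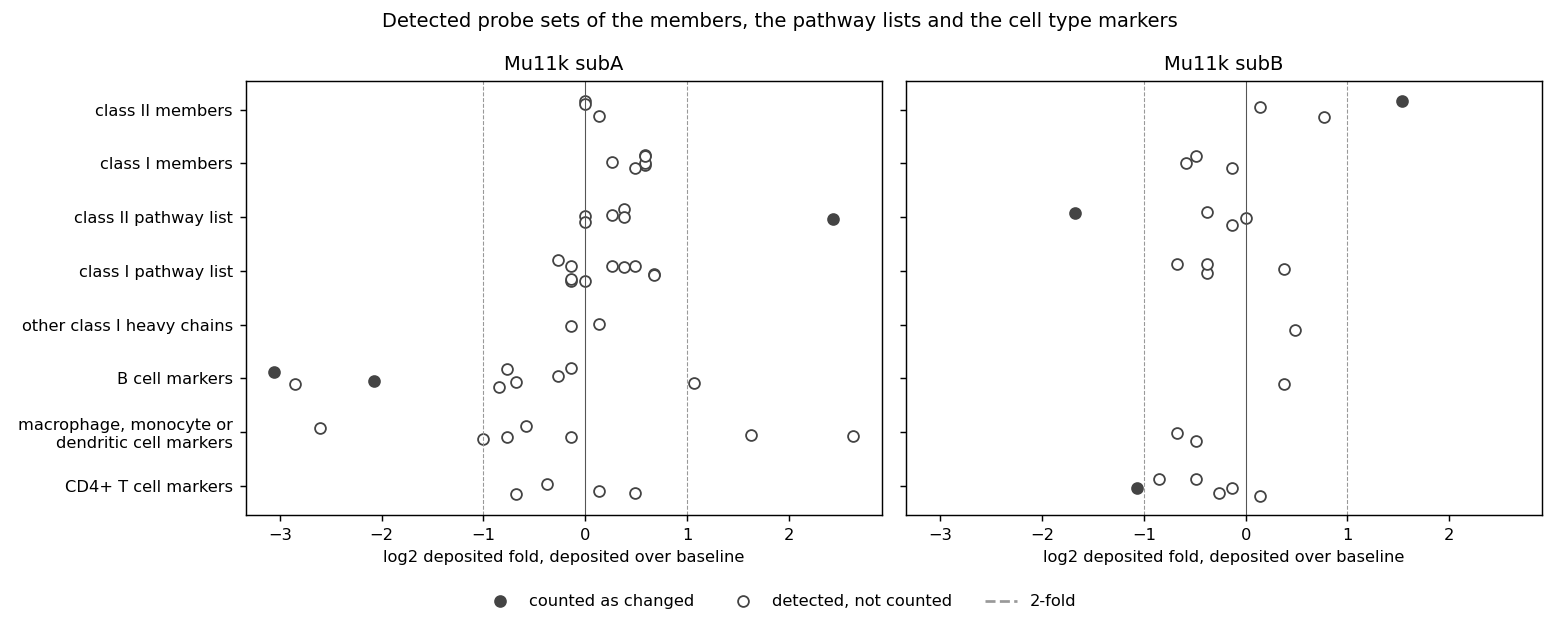
Log2 deposited fold of each detected probe set of the members, the 3 pathway lists and 3 marker lists on subA and subB, filled where counted as changed and open otherwise, with dashed lines at 2-fold and points spread vertically for visibility only. Cd74 is the filled point of the members on subB, Ctsh that of the class II pathway list on subA and Ctsl that on subB.

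MURINE_B2_at was read on both chips under the same ID, with 21 pairs on each. On subA it had 25381 against 17756, a fold of 1.4 in the authors' deposited table with 4 pairs increased and 0 decreased. On subB it had 88837 against 104583, a fold of -1.2 with 2 pairs increased and 1 decreased, and neither chip gave a difference call. With the trend over level removed, the log2 folds of 0.49 and -0.26 became 0 and 0.12. The ID resembles B2m, but the chips also hold MURINE_b1_at and MUR_b2_at, and B1 and B2 are names of mouse short interspersed repeats, so it was not counted as B2m.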

How the data were processed

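Per the labels' protocols, biotinylated cRNA was made from total RNA through cDNA and read on the Mu11k chips, and results are ratios of mean average differences, so arrays may have been averaged. The deposited array intensity values are average differences per probe set. Any scaling, the software and its version are not given in the sources used here. Per the file headers, the authors' comparison tables hold signed folds, calls and scored probe pairs. Folds marked approximate were kept and are called so. Exact folds of detected probe sets lay within 0.15 of the level ratio (log2) for 94.9% on subA and 93.5% on subB. Baseline levels were deposited level minus deposited change, and the asterisk on a baseline was taken to mark it absent. The 55 controls of each chip were left out.

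Probe sets were named by the platform annotation. All 10 members kept their symbol in RefSeq (GRCm38.p6). Of the probe sets on subA and subB, 5560 and 2001 have 1 symbol, 197 and 27 several, and 827 and 4567 none. A gene's median used its detected probe set with the highest mean level. The trend over level is a running median of 300 probe sets, narrowing to 25 on each side at the ends. It includes the members themselves, so where the window is narrow their own folds weigh in the trend that was removed. The first form, with a fixed window at the ends, left a trend in simulated data on subB and was replaced. The calling rule and the trend were tested on simulated data.

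Members, lists and rules were chosen with earlier results of these data known. Every member probe set is described. Of the other lists, changed or called genes are named, with up to 4 others of high level per group, and markers are named as examples. Alternatives covered thresholds, calls, floors, centring, trend, probe set choice and sign. No value of another sample was used (0 columns). Promoters were aligned with Biopython 1.88. Work was done in Python 3.11.15, pandas 2.3.3, NumPy 2.4.6 and matplotlib 3.10.9.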

Additional observations from a re-analysis of the deposited data

Results flagged for a closer look

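H2-D1 drew attention because its 3 probe sets on subA lay on one side and its 1 probe set on subB on the other. Its median log2 fold was 0.58 on subA and -0.58 on subB, a difference of 1.17. MURINE_B2_at, which has the same ID on both chips, likewise had opposite signs, with a difference of 0.75 on the log2 scale. Probe sets of high level leaned the same opposite ways on the 2 chips. With the trend over level removed, H2-D1 had log2 folds of 0.10, 0.21 and 0.26 on subA and -0.21 on subB. MURINE_B2_at then had 0 and 0.12, no longer opposite in sign. Neither difference was tested, since each chip compares 1 array with 1 other.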

How the results depend on the processing

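The number of arrays, 1 per condition and chip, limits every value, and no alternative replaces a replicate. The spread of log2 folds between probe sets of 1 gene served as the yardstick for medians, and 37 of 41 recomputed medians moved by less. Many of these could not move, so the tally is no measure of robustness. Centring subtracted a chip median of 0, which could not move a count either. Every detected member probe set had a single symbol and an exact fold, was called present on the deposited array and was not marked absent at baseline. The settings on these points therefore left the medians as they were. The class I median on subA moved from 0.58 to 0.10 when the running median over level was removed, and on subB from -0.49 to -0.14. With the sign turned, medians became -1.15 for class II on subB, -0.585 for class I on subA and 0.49 for class I on subB. Counts of changed probe sets or genes were within 1.5 times in 22 of 28 cases. Member probe sets on subA rose from 0 to 1 (H2-K1) at a 1.5-fold threshold and by difference call alone, and pathway genes on subA from 1 to 3 under both. A 3-fold threshold left 0 members on subB, since Cd74 stands at 2.9, and leaving out approximate folds left 0 pathway genes there. Without Cd74, an alternative added after seeing the data, the class II median on subB was 0.77. Leaving out probe sets with a suffix removed every detected member, so it gave no value.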

Other observations

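Beyond presentation, the Cd74 product is known as a surface receptor for the cytokine MIF, with CD44, CXCR4 and CXCR2 as partners. These 4 genes were looked up after the value of Cd74 was seen. Mif had a level of 21698 against 23122 on subA, a fold of -1.1 in the authors' deposited table with 3 pairs increased and 3 decreased, and was called absent on subB. Cxcr4 had 2634 against 1962 on subA (1.3), and on subB 1018 against 2400, an approximate fold of -4.3 with a marginal presence call and no difference call. The Cd44 probe sets on subB had 528 against 508 and 607 against 298, with both baselines marked absent. Cxcr2 was called absent on both subA arrays. None of the 4 counted as changed.

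The other short ID-named probe sets beside MURINE_B2_at had folds of the same sign as it on each chip: MURINE_b1_at had 1.2 on subA and -1.3 on subB, and MUR_b2_at 1.2 and -1.4.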
